A study of Saccharomyces cerevisiae with 51 samples.

Results

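The genes described here are the 55 genes that the deposited annotation of the budding yeast genome places on the mitochondrial chromosome, all biotypes included. They were chosen by chromosome name alone, and they are 55 of 7126 annotated genes, or 0.772% of them, with 7071 genes on the 16 nuclear chromosomes. The series holds 51 chromatin immunoprecipitation sequencing (ChIP-seq) libraries from Saccharomyces cerevisiae of the BY4741 strain, 17 each from input DNA, histone H3 and H3 phosphorylated at serine 10. They were made from H3-S10A, ipl1-TetR-mCh, sgo1-TetR-mCh, sgo1 delta, ipl1-321, cdc15-1 and WT cells, either left untreated, given 1 nM beta-estradiol for 3 hours, or held at 37 °C for 90 min. The deposited files describe the genome in a version named before and a version named after, and they carry no measurement from any library, so the depth of the libraries is unknown and no library enters what follows. The values below are coordinates, lengths and counts from the before version; they have no replicates, no sampling error and no test, and the coordinates are 1-based positions on the chromosome named MT of a genome build not given in the sources used here.

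Mitochondria keep a small genome of their own inside the organelle. In budding yeast it encodes core subunits of the respiratory chain and of the ATP synthase, the RNAs of the mitochondrial ribosome and a set of transfer RNAs, while most mitochondrial proteins are encoded in the nucleus and imported. Its DNA is packaged by the HMG-box protein Abf2 and not by histones, and it is transcribed by the phage-type RNA polymerase Rpo41 into long precursors from which tRNAs are cut. Several of its genes hold mobile introns of group I or group II, and some of these introns encode the endonucleases, reverse transcriptases or maturases that move or splice them.

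By role, the 55 genes comprised 7 genes for subunits of the respiratory chain and ATP synthase, 3 genes of the mitochondrial ribosome, the gene for the RNase P RNA, 10 reading frames in introns, 10 other reading frames and 24 tRNA genes. By biotype, 28 were protein-coding (50.9%), 24 were tRNA genes (43.6%), 2 were rRNA genes (3.64%) and 1 was a non-coding RNA gene (1.82%). Among the nuclear genes, 6664 of 7071 were protein-coding (94.2%) and 275 were tRNA genes (3.89%). The 27 mitochondrial RNA genes were thus nearly as many as the annotated protein-coding ones, whereas RNA genes were a small minority in the nucleus. Of the 28 protein-coding genes, 19 matched a locus tag in the R64 gene table from NCBI, fewer than the 27 RNA genes. The nuclear set also held 77 small nucleolar RNA genes, 6 small nuclear RNA genes and 21 pseudogenes, and 0 genes of these biotypes were annotated on the mitochondrial chromosome. The chromosome is 85779 bp long, which is 0.705% of the 12160210 bp of the whole genome, and shorter than chromosome I, the shortest nuclear chromosome, with 230218 bp.

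**Figure D1:**
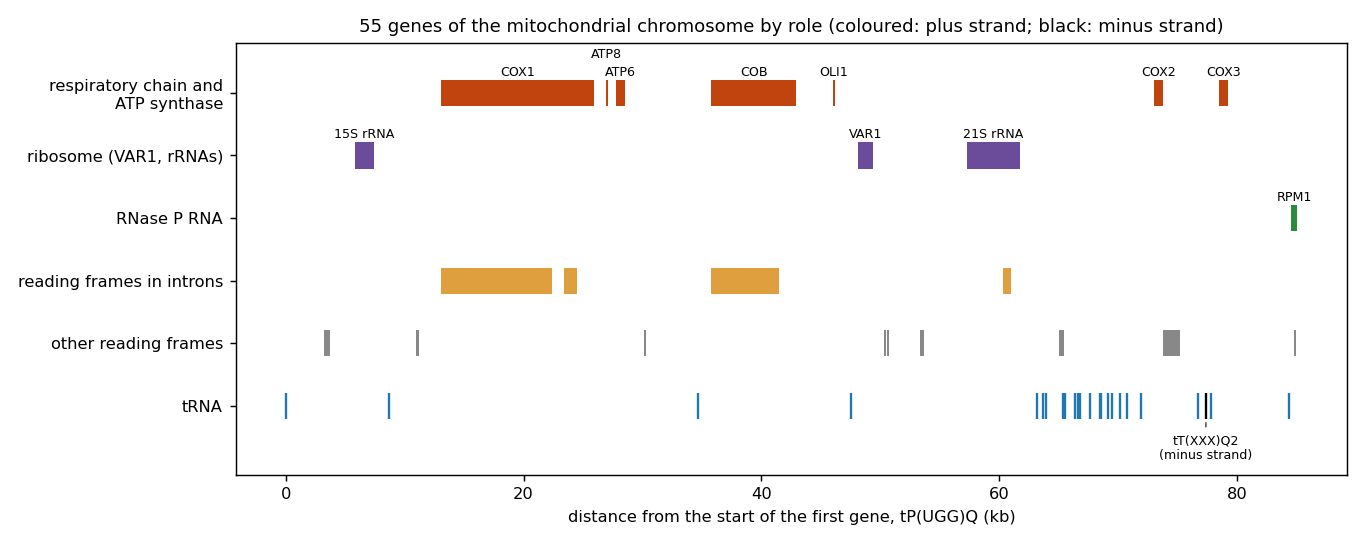
Position of the 55 mitochondrial genes as distance from the start of the first gene in kb (x axis), with 1 row for each role. Bars cover the whole extent of a gene, tRNA genes are drawn as lines of fixed width at their midpoints, and 16 of the 24 tRNA lines lie close together after 21S rRNA.

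The map of gene positions by role shows the order along the chromosome. Its first stretch is sparse and begins with the proline tRNA gene tP(UGG)Q (731 to 802). It is followed by the reading frames Q0010 (3952 to 4338) and Q0017 (4254 to 4415), which overlap, and by 15S_rRNA (6546 to 8194), the RNA of the small ribosomal subunit. The tryptophan tRNA gene tW(UCA)Q (9374 to 9447) and Q0032 (11667 to 11957) stand between 15S_rRNA and COX1. COX1 (13818 to 26701) encodes the largest subunit of cytochrome c oxidase, which is complex IV of the respiratory chain, and its introns hold 6 further reading frames.

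After COX1 come ATP8 (27666 to 27812) and ATP6 (28487 to 29266), which encode membrane subunits of the ATP synthase and lie 674 bp apart. Q0092 (30874 to 31014) and the glutamate tRNA gene tE(UUC)Q (35373 to 35444) follow. COB (36540 to 43647) encodes cytochrome b, the core of complex III, and holds another 3 reading frames in its introns. OLI1 (46723 to 46953), also known as ATP9, encodes the subunit that forms the rotating ring of the ATP synthase. The serine tRNA gene tS(UGA)Q2 (48201 to 48290) precedes VAR1 (48901 to 50097), which encodes a protein of the small ribosomal subunit. The short reading frames Q0142 (51052 to 51228), Q0143 (51277 to 51429) and Q0144 (54109 to 54438), lie between VAR1 and 21S_rRNA (58009 to 62447), the RNA of the large subunit.

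The region after 21S_rRNA is mainly one of tRNA genes. It also holds COX2 (73758 to 74513) and COX3 (79213 to 80022), the other core subunits of cytochrome c oxidase, and RPM1 (85295 to 85777), the RNA of the mitochondrial RNase P that cuts tRNAs from their precursors. Q0182 (65770 to 66174) lies among the tRNA genes, Q0255 (74495 to 75984) begins inside COX2, and Q0297 (85554 to 85709) lies wholly within RPM1. The 58008 bp before 21S_rRNA held 27 genes, of which 22 were protein-coding and 4 were tRNA genes. The 23332 bp after it held 26 genes, of which 5 were protein-coding and 20 were tRNA genes. The 22 include the reading frames in the introns of COX1 and COB. They also include Q0010, Q0017, Q0032, Q0092, Q0142, Q0143 and Q0144, which are absent from the R64 gene table. The remaining protein-coding genes of that side are COX1, ATP8, ATP6, COB, OLI1 and VAR1. With the map drawn as a line, the large rRNA gene thus leaves most tRNA genes on the shorter side. The longer side is mainly protein-coding only when all annotated reading frames are counted. SCEI, inside the 21S_rRNA intron, belongs to neither.

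The rRNA genes lie far apart. The end of 15S_rRNA is 49814 bp from the start of 21S_rRNA, with COX1, COB and VAR1 among the genes between them. In the nucleus, the corresponding genes RDN18-1 and RDN25-1 on chromosome XII are 751 bp apart within RDN37-1, the unit transcribed as 1 precursor. 15S_rRNA is 1649 bp long with no intron, and the exons of 21S_rRNA sum to 3296 bp, against 1800 bp for RDN18-1 and 3396 bp for RDN25-1.

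Of the 55 genes, 54 lie on the plus strand (98.2%). The exception is tT(XXX)Q2 (78089 to 78162), a threonine tRNA gene between tF(GAA)Q and tV(UAC)Q whose anticodon is written XXX in the annotation; the R64 gene table from NCBI, used here for names and neighbours, lists tT(UAG)Q2 between the same neighbours. On the 16 nuclear chromosomes the plus-strand share had a median of 50.9% and ran between 44.8% on chromosome III and 54.1% on chromosome VIII. Runs of neighbouring genes on 1 strand averaged 18.3 genes on the mitochondrial chromosome, which has 3 such runs, against a nuclear median of 1.85 genes per run. The mitochondrial genes are thus almost all read in 1 direction, while neighbouring nuclear genes often lie on opposite strands. Of the 40 stretches between mitochondrial genes, 38 separate genes on the same strand (95.0%), 1 is convergent and 1 is divergent. Of the 6308 nuclear stretches, 3042 separate genes on the same strand (48.2%), 1671 are convergent (26.5%) and 1595 are divergent (25.3%). Of the tRNA genes, 1 of 24 lies on the minus strand in mitochondria, against 132 of 275 (48.0%) in the nucleus.

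The 7 genes of the respiratory chain and ATP synthase differ widely in extent, the distance covered by all records of a gene, but less in exon length. COX1 has an extent of 12884 bp and exons of 1605 bp, and COB an extent of 7108 bp and exons of 1158 bp. The other 5 have no introns, at 147 bp for ATP8, 231 bp for OLI1, 756 bp for COX2, 780 bp for ATP6 and 810 bp for COX3. Only 1 nuclear gene, MDN1 at 14733 bp, is longer in extent than COX1, and 18 of 7071 are longer than COB. In exon length the 28 mitochondrial protein-coding genes had a median of 795 bp, against 1080 bp for the 6664 nuclear ones.

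Each of these complexes is completed by nuclear genes, and the mitochondrial share differs among them. In complex III, COB accounts for 1158 bp of exon against 5607 bp in 9 listed nuclear genes, or 17.1% of the total. In complex IV, COX1, COX2 and COX3 hold 3171 bp against 3276 bp in 10 nuclear genes, or 49.2%; that nuclear list counts COX5A and COX5B, which encode alternative forms of 1 subunit. In the ATP synthase, ATP6, ATP8 and OLI1 hold 1158 bp against 8388 bp in 14 nuclear genes, or 12.1%. COX1 has more exon sequence than any of the 10 listed nuclear genes of complex IV, whose longest, COX4, has 468 bp. In complex III, COR1, a core protein, is longer than COB at 1374 bp, and in the ATP synthase ATP1 and ATP2, the catalytic head's subunits alpha and beta, are longer than ATP6 at 1638 bp and 1536 bp.

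**Figure D2:**
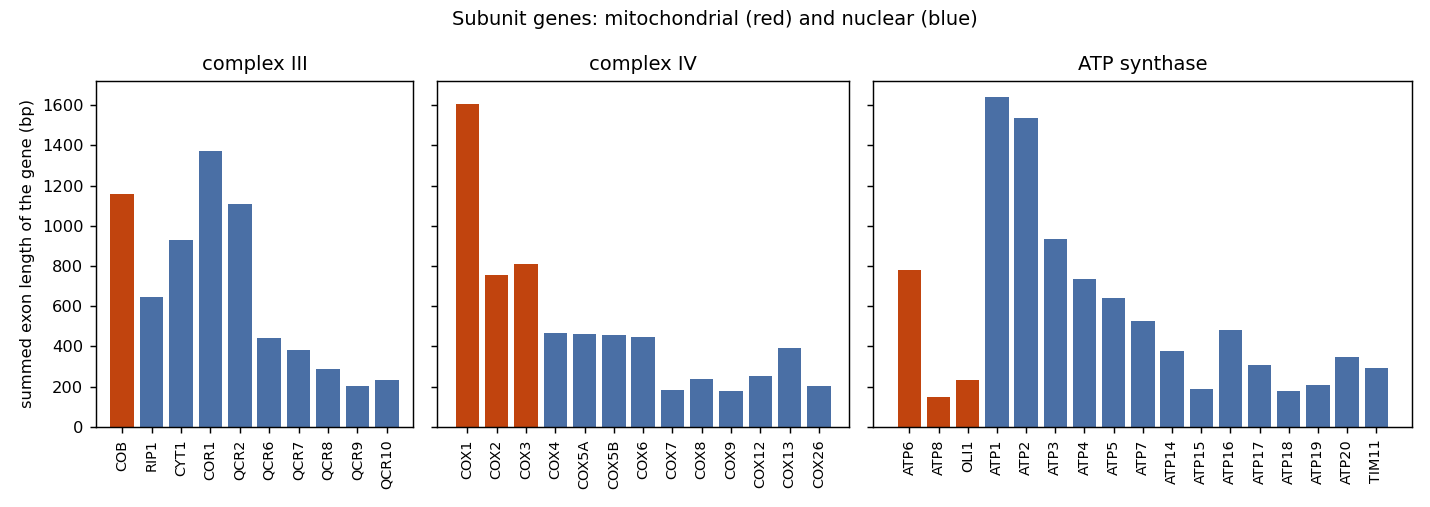
Summed exon length in bp (y axis) of the mitochondrial genes (red) and the listed nuclear genes (blue) for complex III, complex IV and the ATP synthase. The 3 mitochondrial bars of complex IV stand above every nuclear bar of that complex, whereas in the ATP synthase ATP1 and ATP2 are the tallest.

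The nuclear partner lists held 76 genes in all, adding those for mtDNA maintenance and transcription, intron splicing, translational activation and mitochondrial aminoacyl-tRNA synthetases to the subunits above. All 76 were found, 1 of them (COX24) under the symbol QRI5. In contrast to the 54 of 55 mitochondrial genes on 1 strand, they are spread over 15 chromosomes with 39 on the plus and 37 on the minus strand. The plus-strand share over all genes had a similar median, 50.9%, on the nuclear chromosomes. Introns were annotated in 4 of the 76, which are QCR9 (213 bp), QCR10 (63 bp) and COX5B (88 bp), all subunits of the respiratory chain, and RIM1 (83 bp), a single-stranded DNA-binding protein of mitochondria. QCR9 is the only one of these in which the intron exceeds the exons, at 51.5% of its extent. The longest gene of the lists is RPO41 at 4056 bp. The genes whose products act in splicing mitochondrial introns, among them CBP2, MRS1, MSS116 and the leucyl-tRNA synthetase gene NAM2, have 0 introns in 9 genes. Over all nuclear protein-coding genes, 318 of 6664 had an intron (4.77%). The 4 of 76 partners are near that share, and 9 genes are too few to show a lower one.

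Introns were taken as gaps between consecutive exons of a gene. They occur in 12 of the 55 mitochondrial genes (21.8%), in 11 of 28 protein-coding genes (39.3%), 1 of 2 rRNA genes and 0 of 24 tRNA genes. In the nucleus, 384 of 7071 genes had an intron (5.43%), with 318 of 6664 protein-coding genes (4.77%) and 60 of 275 tRNA genes (21.8%). These nuclear counts include gaps as short as 1 bp. Of the 395 nuclear gaps, 289 reached 50 bp, and 281 of those were in protein-coding genes. The share over all genes hides opposite patterns, because in mitochondria introns are found in protein-coding and rRNA genes and in the nucleus they are more frequent among tRNA genes. The mitochondrial count rests on shared introns: only COX1, COB and 21S_rRNA are hosts of long introns, 7 further genes reuse the introns of COX1 or COB as parts of their own models, and AI5_BETA and Q0255 have gaps of 31 to 40 bp. With each gap counted only in its longest gene, 5 mitochondrial genes had an intron.

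COX1 has 7 introns, COB has 5 and 21S_rRNA has 1. In the nucleus 11 genes had 2 introns and 0 had more, among them the RDN37-1 and RDN37-2 rRNA precursors, whose gaps are the spacers between the rRNAs, and SUS1, a subunit of the SAGA complex. The 13 host introns ran from 738 to 2483 bp with a median of 1404 bp. Of 395 nuclear introns, only 4 reached 738 bp: those of DBP2 (1002 bp, chromosome XIV), an RNA helicase, YHL050C (773 bp, VIII), YRA1 (766 bp, IV), an mRNA export factor, and GCR1 (751 bp, XVI), a transcription factor of glycolytic genes. The nuclear median was 96 bp over all gaps and 143 bp over the 289 gaps of at least 50 bp. The shortest mitochondrial host intron therefore exceeds all but 4 nuclear introns in length.

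Introns make up most of the extent of COX1 and COB but not of 21S_rRNA. They take 87.5% of the extent of COX1, 83.7% of COB and 25.8% of 21S_rRNA. The highest share in a nuclear protein-coding gene was 71.2%, in RPL39, a ribosomal protein gene. The median over the 318 with a gap of any length, short ones included, was 17.0%. Together the 13 introns cover 18372 bp, or 21.4% of the mitochondrial chromosome, and their 3 hosts span 24431 bp, or 28.5% of it. The introns are 75.2% of the summed extents of the hosts; after removal of intron bases that are exon of a reading frame, 24.5% of those extents is left.

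**Figure D3:**
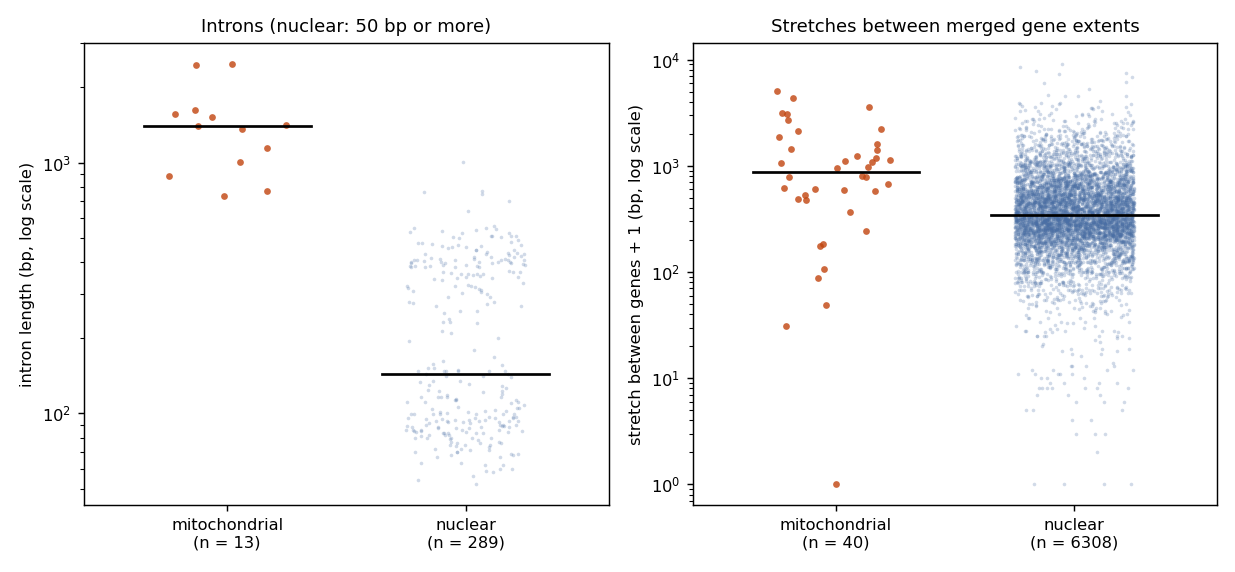
Left, intron length in bp (log scale) for the 13 mitochondrial host introns and the 289 nuclear introns of at least 50 bp. Right, length in bp plus 1 (log scale) of the 40 mitochondrial and 6308 nuclear stretches between genes. Points are single introns or stretches, and black lines are medians, at 1404 and 143 bp for introns and, before 1 is added, at 880 and 344.5 bp for stretches.

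The plot of intron and stretch lengths shows the mitochondrial introns above nearly all of the nuclear ones, whereas the mitochondrial stretches lie within the nuclear range. Of the 13 host introns, 10 hold an annotated reading frame and 3 do not. The 10 with a frame ran from 1010 to 2483 bp with a median of 1466 bp. The 3 without one are the last intron of COX1 (25343 to 26228, 886 bp), the first of COB (36955 to 37722, 768 bp) and the last of COB (42559 to 43296, 738 bp). These are also the 3 shortest of the 13, so the lengths of introns with and without a frame do not overlap.

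The 10 frames fall into 2 kinds. In 8 of them the gene model starts at the first base of its host, runs through the host's exons and continues into the intron, so that the frame has as many exons as the number of its intron. The other 2, AI5_BETA in COX1 and SCEI in 21S_rRNA, lie entirely inside their intron. By these gene models, translation of a joined frame would begin with the N-terminal part of the host protein. No protein product was examined here. By the rule that at least 50% of a frame's coding bases lie in introns of another gene, 9 of 28 mitochondrial protein-coding genes are intron frames (32.1%), against 2 of 6664 nuclear ones (0.0300%), which are YGL177W within MPT5 and YPR170W-A within YPR170W-B. The tenth mitochondrial frame, AI5_ALPHA, has 48.6% of its coding bases in the intron and falls just short, and AI4, at 56.8%, is the member nearest above that limit.

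**Figure D4:**
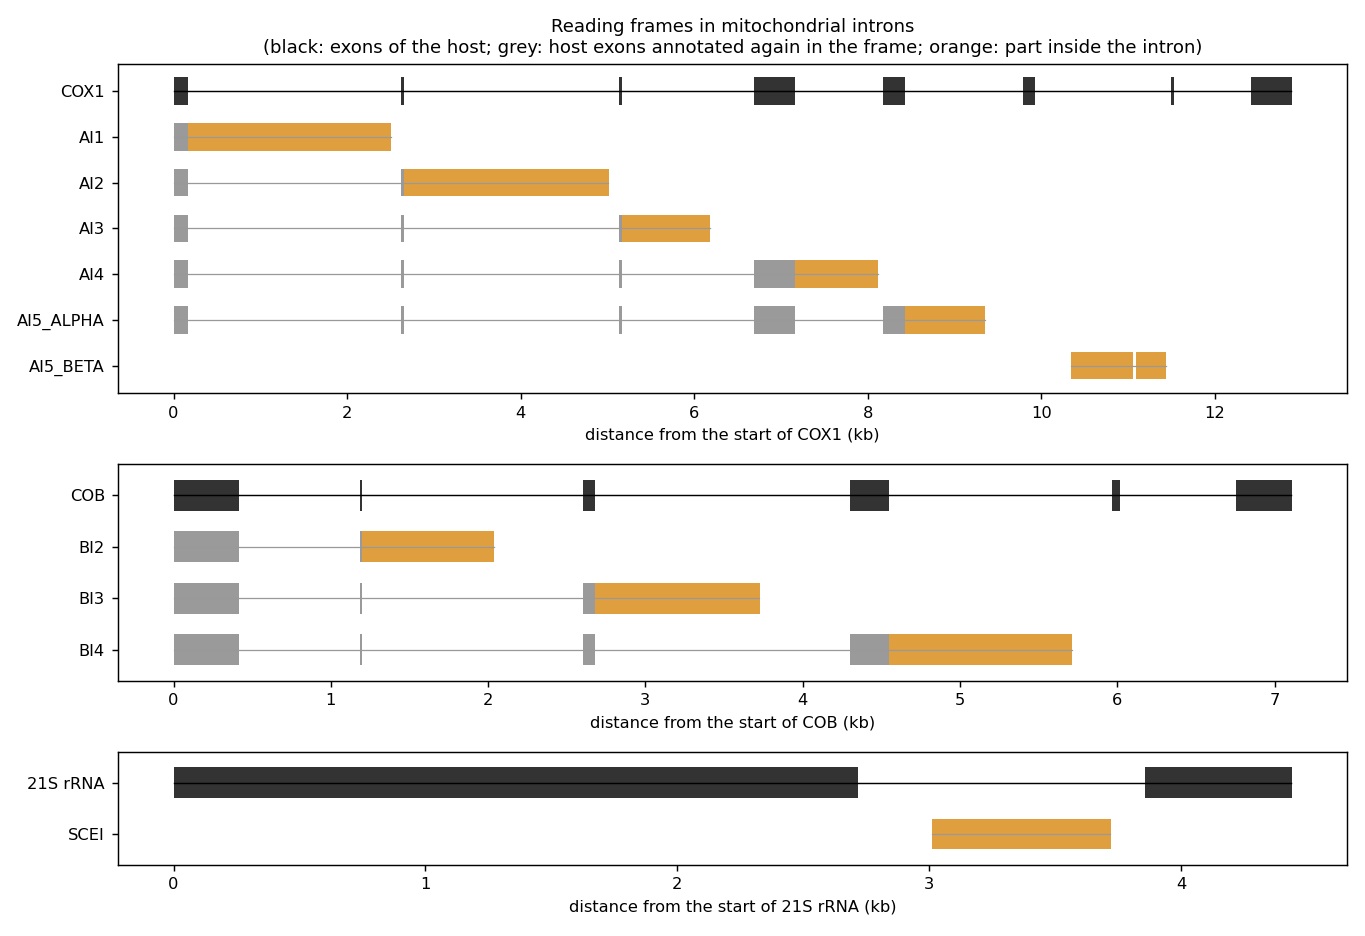
Exons of COX1, COB and 21S rRNA (black) and of the 10 reading frames in their introns, as distance from the start of the host in kb. Grey marks host exons annotated again in the frame and orange the coding bases inside the intron, and the white gap in AI5_BETA is its 35-bp gap.

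The first pair of COX1 introns, at 13987 to 16434 (2448 bp) and 16471 to 18953 (2483 bp), are the longest of all 13. They hold AI1 (13818 to 16322) and AI2 (13818 to 18830), which encode reverse transcriptases with maturase activity of group II introns. These are also the longest frames, with 2505 bp for AI1 and 2565 bp for AI2, and they fill 95.3% and 95.1% of their introns. The share of coding bases that comes from COX1 exons is small, at 6.76% in AI1 and 7.99% in AI2. Both frames end close to the end of their intron, at 112 bp for AI1 and 123 bp for AI2.

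AI3 (13818 to 19996), AI4 (13818 to 21935) and AI5_ALPHA (13818 to 23167) follow in the next 3 introns, and encode homing endonucleases of group I introns. AI3 is 1248 bp long in exons and lies in an intron at 18992 to 20507 (1516 bp). AI4 is 1671 bp long, in the intron at 20985 to 21994 (1010 bp), and AI5_ALPHA is 1893 bp long, in that at 22247 to 23611 (1365 bp). With each step along the host more COX1 exons are included, and they supply 243 coding bases in AI3, 720 in AI4 and 972 in AI5_ALPHA. The part inside the intron is shorter than the 2360 bases of AI2, at 1005, 948 and 918 bases. Both changes enter the share of coding bases from COX1 exons, which is 19.5% in AI3, 43.2% in AI4 and 51.4% in AI5_ALPHA. AI4 fills 93.9% of its intron, ending 59 bp before the intron does, whereas AI3 fills 66.3% and leaves 511 bp after it, and AI5_ALPHA leaves 444 bp.

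AI5_BETA (24156 to 25255) begins 409 bp into the sixth intron of COX1 (23747 to 25317, 1571 bp) and ends 62 bp before its end. It has 1065 bp of exon in 2 exons, separated by the 35-bp gap at 24871 to 24905. It is the only COX1 intron frame of the 6 that uses no COX1 exon.

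In COB, BI2 (36540 to 38579), BI3 (36540 to 40265) and BI4 (36540 to 42251) extend into COB introns 2, 3 and 4 and encode maturases for splicing of COB introns; the BI4 maturase is also needed for splicing of a COX1 intron. Their introns lie at 37737 to 39140 (1404 bp), 39218 to 40840 (1623 bp) and 41091 to 42507 (1417 bp). BI2 has 1272 bp of exon, BI3 1554 bp and BI4 1917 bp. COB exons supply between 32.6% (BI3) and 39.4% (BI4) of their coding bases, with 33.7% in BI2, a narrower range than among the COX1 frames. BI4 fills 81.9% of its intron, against 60.0% for BI2 and 64.4% for BI3, which stop 561 bp and 575 bp before the intron ends.

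SCEI (61022 to 61729) encodes I-SceI, the homing endonuclease of the intron named omega. At 708 bp it is the shortest of the 10 frames. It lies 297 bp inside the intron of 21S_rRNA (60725 to 61867, 1143 bp) and ends 138 bp before the intron's end. As its host is an RNA gene, it has no coding sequence to join.

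In COX1 and COB the exons sum to less than the introns, and those near the start are used by several genes. 21S_rRNA differs, with exons of 2716 and 580 bp beside an intron of 1143 bp and both exons in that gene alone. COX1 exons measure 169, 36, 38, 477, 252, 135, 25 and 473 bp in order. Exon 1 belongs to 6 genes, exon 2 to 5, exon 3 to 4, exon 4 to 3 and exon 5 to 2, and only the last 3 belong to COX1 alone. COB exons measure 415, 14, 77, 250, 51 and 351 bp, and the first and second belong to 4 genes each. The smallest exon, of 14 bp, is thus annotated in COB, BI2, BI3 and BI4. Of the mitochondrial bases in exons, 6.98% lie in exons of more than 1 gene, against a median of 2.60% on nuclear chromosomes (1.51% to 3.94%). By extent, 48.2% of the bases within mitochondrial genes lie in more than 1 gene and 2505 bases lie in 6 genes. By exons, up to 6 genes share a mitochondrial base (169 bases, the first exon of COX1), whereas no nuclear base lies in exons of more than 3.

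All 28 mitochondrial protein-coding genes have a start codon record and a coding length that is a multiple of 3. A stop codon record is missing in 6 of them, namely COX1, AI2, AI3, AI5_BETA, BI2 and BI4, against 170 of 6664 nuclear protein-coding genes. Yeast mitochondria read codons by a genetic code of their own, and which codons end these frames was not analysed here because no sequence of the chromosome was used.

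The 10 other reading frames have no role assigned here, and 9 of them are short. Their exon length had a median of 234 bp and ran from 141 bp in Q0092 to 1419 bp in Q0255, and the next longest was Q0182 at 405 bp. Q0255 is the only one with gaps, of 40 bp at 75623 to 75662 and 31 bp at 75873 to 75903. Of the 28 protein-coding identifiers, 19 matched a locus tag in the R64 gene table, and the 9 that did not are Q0010, Q0017, Q0032, Q0092, Q0142, Q0143, Q0144, Q0182 and Q0297. Every other reading frame except Q0255 is thus absent from that table, while all genes of the other roles with a protein product are in it.

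Apart from the hosts and their frames, 4 pairs of mitochondrial genes overlap, and each involves at least 1 of the other reading frames. Q0010 and Q0017 share 85 bp, which is 52.5% of Q0017. Q0182 shares 80 bp with the leucine tRNA gene tL(UAA)Q, or 94.1% of that tRNA gene. Q0255 begins within the last 19 bp of COX2. Q0297 lies over its full 156 bp inside RPM1. No overlap joins genes of different strands, since the sole minus-strand gene overlaps none.

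The 24 tRNA genes cover 20 amino acids, with 1 gene for each of 16 and 2 genes each for methionine, arginine, serine and threonine. The 23 of them with a named anticodon carry 22 different ones, or 1.05 genes for each, against 41 anticodons and 6.68 genes for each among the 274 nuclear tRNA genes with a named anticodon. Of the 22 mitochondrial pairs of amino acid and anticodon, 20 are also named among nuclear genes, and the isoleucine anticodon GAU and the tryptophan anticodon UCA are named in mitochondria only. A tryptophan tRNA with UCA reads UGA as well as UGG, and in yeast mitochondria UGA is a codon for tryptophan. The difference in copy number was largest for aspartate and glutamate, with 1 mitochondrial gene against 16 nuclear genes for tD(GUC) and 1 against 14 for tE(UUC). It was smallest among the shared anticodons for valine, with 1 against 2 for tV(UAC). The mitochondrial tRNA genes measured 71 to 90 bp with a median of 75.5 bp, and the exons of the nuclear ones 71 to 100 bp with a median of 73 bp.

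After 21S_rRNA, 16 of the 24 tRNA genes (66.7%) follow each other between 63862 and 72705, with Q0182 as the only other gene. This cluster spans 8844 bp, 10.3% of the chromosome, and holds 1.81 tRNA genes per kb. The most nuclear tRNA genes in any window of that span was 4, on chromosome V. The cluster begins with tT(UGU)Q1 (63862 to 63937), tC(GCA)Q (64415 to 64490), tH(GUG)Q (64596 to 64670) and tL(UAA)Q (66095 to 66179). It continues with tQ(UUG)Q (66210 to 66285), tK(UUU)Q (67061 to 67134), tR(UCU)Q1 (67309 to 67381), tG(UCC)Q (67468 to 67542) and tD(GUC)Q (68322 to 68396). Its closest neighbours are tS(GCU)Q1 (69203 to 69288) and tR(ACG)Q2 (69289 to 69362), which adjoin with 0 bp between them. The last genes are tA(UGC)Q (69846 to 69921), tI(GAU)Q (70162 to 70237), tY(GUA)Q (70824 to 70907), tN(GUU)Q (71433 to 71503) and tM(CAU)Q1 (72630 to 72705). The other 8 are dispersed, 4 before 21S_rRNA as named above and 4 around COX3, namely tF(GAA)Q (77431 to 77505), tT(XXX)Q2, tV(UAC)Q (78533 to 78608) and tM(CAU)Q2 (85035 to 85112).

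Neighbouring tRNA genes were a median of 586 bp apart in mitochondria (0 to 25925 bp), against 23812 bp in the nucleus. Only 6 of 259 nuclear distances (2.32%) were shorter than the mitochondrial median. Cluster genes and dispersed ones serve different amino acids except for methionine, serine and threonine, which have 1 gene inside and 1 outside. Both arginine genes are inside the cluster.

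Gene density was given as genes per kb of chromosome. It was 0.641 on the mitochondrial chromosome, above all 16 nuclear chromosomes, which had a median of 0.585 and ran from 0.552 on chromosome I to 0.635 on chromosome III. The order depends on which genes are counted. Protein-coding genes alone gave 0.326 per kb in mitochondria, below all 16 nuclear chromosomes (median 0.553, 0.517 to 0.584). tRNA genes gave 0.280 per kb, against a nuclear median of 0.0211 (0.0160 on II to 0.0370 on VI), or 13.2 times that median. Without the reading frames nested by at least 50% of their extent in a longer gene, mitochondrial density over all genes was 0.501 per kb, below all 16 nuclear chromosomes, whose median was then 0.577.

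**Figure D5:**
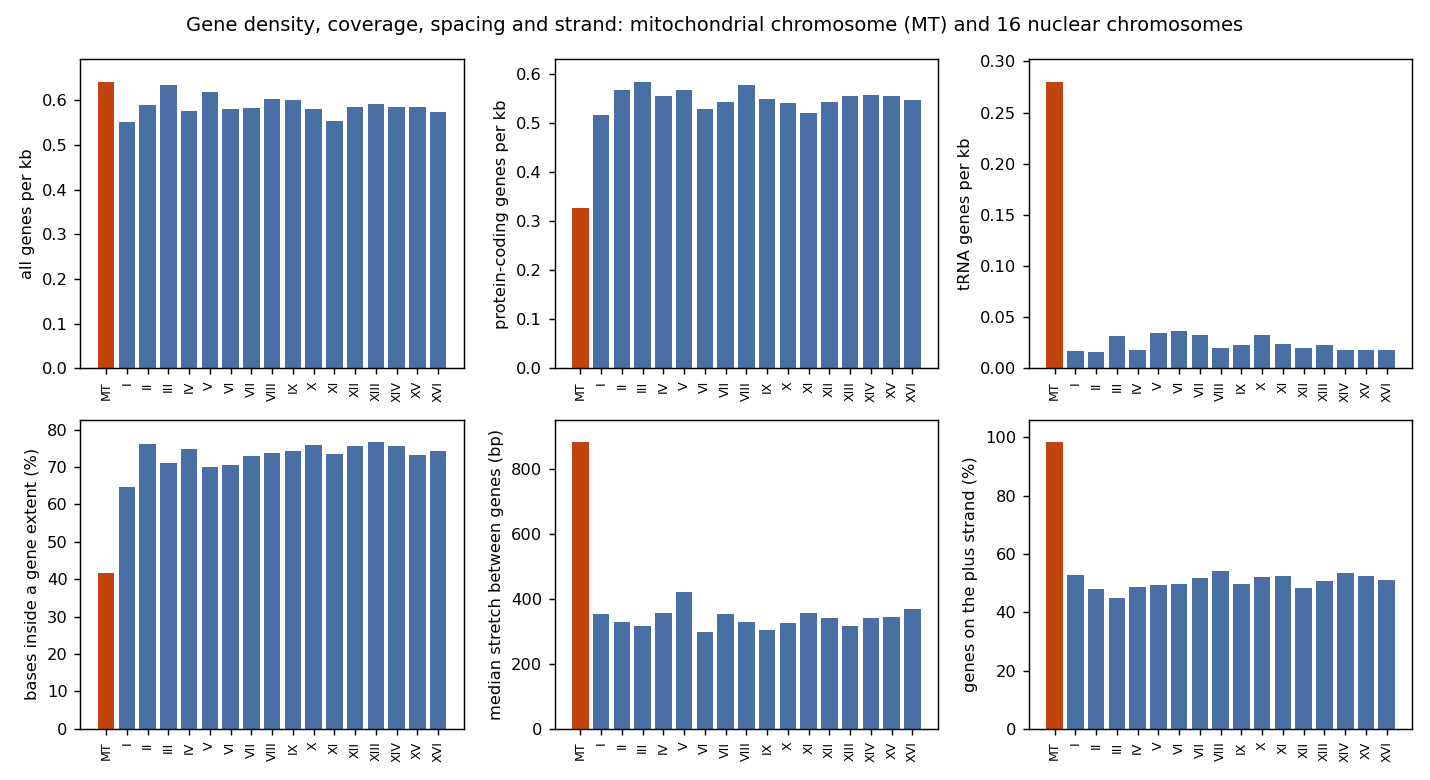
Values of the mitochondrial chromosome (MT, red) and the 16 nuclear chromosomes (blue) for genes per kb, protein-coding genes per kb, tRNA genes per kb, share of bases inside a gene extent, median stretch between genes in bp and share of genes on the plus strand. The mitochondrial bar is the highest for all genes, tRNA genes, stretch length and strand, and the lowest for protein-coding genes and for the share of bases in genes.

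In spite of its many genes per kb, the mitochondrial chromosome has the smallest share of bases inside genes. Gene extents cover 41.6% of it, against a nuclear median of 74.0% (64.6% on I to 76.6% on XIII), and 50104 bp (58.4%) lie outside any gene. Exons cover 34.5% in mitochondria and a median of 73.3% on nuclear chromosomes, and coding sequence covers 26.3% in mitochondria and a median of 72.5% on nuclear chromosomes. The mitochondrial value is below that of every nuclear chromosome on each of these measures. The median extent of a mitochondrial gene was 156 bp, against 1026 bp as the median of the nuclear chromosomes. The mitochondrial median counts the 24 tRNA genes, whose extents were 71 to 90 bp. Among genes with coding sequence the median extent was 795 bp in mitochondria, against 1079 bp as the median of the nuclear chromosomes. The COX1 and COB genes with extents of several kb lie over those of their intron frames.

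The 40 stretches between mitochondrial genes, after overlapping genes were merged, had a median of 880 bp. The nuclear chromosomes had medians between 298 bp on VI and 420 bp on V, and all 16 were below the mitochondrial one. Over 1000 bp were 18 of 40 mitochondrial stretches (45.0%) and 589 of 6308 nuclear ones (9.34%). Under 100 bp were 4 of 40 mitochondrial stretches (10%) and 375 of 6308 nuclear ones (5.95%). The mitochondrial share of long stretches was thus larger. The 4 short stretches are too few to set their share apart from the nuclear one. Measured on each strand on its own, which ignores genes on the opposite strand, the median was 964 bp in mitochondria, below 15 of the 16 nuclear chromosomes, whose median was 1088 bp.

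None of the 5 longest stretches lies in the tRNA cluster. They sum to 19164 bp, or 22.3% of the chromosome. They are those of 5012 bp between COX3 and tM(CAU)Q2, 4358 bp between Q0092 and tE(UUC)Q, 3570 bp between Q0144 and 21S_rRNA, 3149 bp between tP(UGG)Q and Q0010, and 3075 bp between COB and OLI1. Of the 6308 nuclear stretches, 9 were longer than the first of these and 37 were longer than the last. At the short end, tL(UAA)Q and tQ(UUG)Q are 30 bp apart, Q0142 and Q0143 are 48 bp apart, and tR(UCU)Q1 and tG(UCC)Q are 86 bp apart. By flank, the 16 stretches with a tRNA gene on both sides had a median of 480 bp (0 to 1126 bp), the 14 with 1 on a single side 1213 bp (182 to 5012 bp), and the 10 with none 1734 bp (48 to 3570 bp). The ranges of the 3 kinds overlap. The mitochondrial map is drawn as a line, with 730 bp before the first gene and 2 bp after the last; joined as a circle, these give 1 more stretch of 732 bp.

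The deposited bins divide the mitochondrial chromosome into 499 bins of 172 bp, the last of them 123 bp long. Nuclear bins were longer, between 461 and 3071 bp with a median of 1530 bp, and each nuclear chromosome was cut into 500 of them. Of the mitochondrial bins 51.1% hold no gene, against a nuclear median of 1.00% (0.400% to 20.6%), and there were 0.110 genes per bin in mitochondria against a nuclear median of 0.892. Both values depend on bin length and are not measures of density. The 461-bp bins of chromosome I were empty in 20.6% of cases and the 3071-bp bins of IV in 0.400%. Per kb, the mitochondrial chromosome had 0.641 genes against a nuclear median of 0.585. COX1 alone spans 76 bins. Between the before and the after version, 0 of the 55 mitochondrial genes differed in any record, and the length of the chromosome differed by 0 bp.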

How the data were processed

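Reads of the 51 libraries were aligned with Bowtie2 2.2.9, per the submitters' processing notes; the sources used here do not name a build. The authors deposited 6 files, which are gene annotations, chromosome lengths and bins as positions in bp, in a before and an after version, and no value per library; the comparison of H3pS10 between groups is not analysed here. Genes were grouped by chromosome name, and the extent of a gene was taken over all of its records. An intron was a gap of at least 1 bp between consecutive exons. An intron reading frame had at least 50% of its coding bases in introns of another gene of its strand. Stretches lie between merged gene extents of both strands. Every mitochondrial gene was named, and of nuclear genes those with the longest or most introns (the first 3 by identifier among ties) and the listed partners with introns; other nuclear genes, and values within the partner lists, were chosen after their values were seen. The members and lists were chosen with earlier results of these data known. Of the 55 identifiers, 42 matched a locus tag of the NCBI R64 gene table, which was used for names and order. Python 3.11.15, numpy 2.4.6 and matplotlib 3.10.9 were used. The functions were tested on simulated data, in which they recovered 384 of 384 genes with their introns, 84 of 84 intron reading frames and 299 of 299 stretches. Alternatives changed which genes, gaps or lengths were counted. All coordinates are 1-based.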

Additional observations from a re-analysis of the deposited data

How the results depend on the processing

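All values are properties of 1 annotation, and their precision is that of its gene models; depth sets no limit here. No paired analysis was possible because no library has a value in the files. The alternatives that keep only protein-coding genes of the R64 gene table, and that count each gap in its longest gene, were chosen after seeing the data. The share of plus-strand genes was 98.2%, and 100% for protein-coding genes, 95.8% for tRNA genes, 97.1% for genes that overlap no other and 97.8% with the R64 table. Genes with introns numbered 12, and 5 with each gap in its longest gene. Intron reading frames numbered 9, and 2 with the whole extent inside 1 intron. Gene density was 0.641 per kb, the same to 3 digits up to the end of the last record, 0.326 for protein-coding and 0.280 for tRNA genes; 0.501 without reading frames nested by at least 50% of their extent in a longer gene, the form in which the planned removal of overlapping frames was run; and 0.536 with the R64 table, above 11 and below 5 nuclear chromosomes, whose median was then 0.531. Density for protein-coding genes and without nested frames turned from above to below the nuclear median. Median spacing was 880 bp, 2877 bp between protein-coding genes, 806 bp with the stretch across the map ends and 777 bp with the R64 table, and the mean was 1234 bp; on each strand alone it was 964 bp and fell below the nuclear median. Coverage was 41.6%, with 34.5% by exons, 26.3% by coding sequence and 39.4% with the R64 table. Introns were 75.2% of host extents, and 24.5% without exon bases of other genes. The count of protein-coding genes was 28 in the after version and by coding records, and 19 with the R64 table.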
